A study of Mus musculus with 2 samples.

Results

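The 9 genes described here encode chemokine receptors of effector and tissue-homing T cells, *Ccr6*, *Ccr4*, *Ccr2*, *Ccr8*, *Ccr9*, *Cxcr3*, *Cxcr4*, *Cxcr5* and *Cxcr6*. They were chosen by name, as rows of the deposited count tables with these symbols, and all 9 were found among the 23282 gene rows. Cells of *Fak* fl/fl mice, in which *Fak* (the kinase FAK, listed as *Ptk2*) can be removed by Cre, were compared with and without Cre. Naïve CD4 T cells from the spleen of young female mice received either a control retrovirus (MIEG3, here Control) or a retrovirus carrying Cre recombinase (RV-Cre). Both groups were activated through CD3ε (coated antibody at 10 μg/ml) and CD28 (antibody in solution at 5 μg/ml) and kept for 3 days with IL-6 (50 ng/ml), TGF-β1 (1 ng/ml), TNF-α (1 ng/ml), IL-1β (2 ng/ml) and blocking antibodies to IFN-γ and IL-4 (5 μg/ml each), which drives Th17 differentiation. Transduced cells, marked by GFP, were sorted before RNA isolation. For Control the labels disagree, with WT as the genotype but floxed cells with the control virus in the title, which was followed.

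Each group had 1 library, so differences between the groups are described without p-values and could not be checked against replicates. Control had 13799264 counted reads and RV-Cre 12305010, of which 8.50% and 14.6% were on the ribosomal RNA gene *Rn45s*. *Ptk2* had 110 and 31 reads, a normalized ratio of 0.318, and whether the counted reads fall in the removed part of the gene is not known. Cre and the loss of *Fak* came together in 1 library and cannot be told apart. All 12 T cell markers examined had at least 713 reads in Control and 750 in RV-Cre. In bulk RNA, fewer cells that express a receptor and less receptor RNA in each cell cannot be told apart.

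Chemokine receptors are receptors with 7 membrane-spanning helices that couple to Gi proteins and steer cells along gradients of small secreted chemokines. T cells leaving the naïve state exchange the lymph node receptor CCR7 for receptors that read inflamed or barrier tissue, and each helper subset carries a typical combination. CCR6, the receptor for CCL20, is the receptor most closely tied to Th17 cells. CXCR3 is typical of Th1 cells, CCR4 and CCR8 of Th2 and regulatory T cells, CXCR5 of follicular helper T cells and CCR9 of gut-homing T cells.

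Most of the receptor genes share a chromosome (GRCm38, GENCODE M21 gene models). Of the 9, *Ccr4* (chr9:114490316-114504916, minus strand), *Ccr8* (chr9:120092114-120094906, plus strand), *Ccr9* (chr9:123678439-123784330, plus strand), *Cxcr6* (chr9:123806475-123811760, plus strand), *Ccr2* (chr9:124101950-124113557, plus strand) and *Cxcr5* (chr9:44511787-44561877, minus strand) are on chromosome 9. *Ccr6* is at chr17:8236043-8257141 (plus strand), *Cxcr4* at chr1:128588199-128592293 (minus strand) and *Cxcr3* at chrX:101731535-101734269 (minus strand). *Cxcr6* lies inside *Fyco1*, which runs on the opposite strand, without a shared exonic base. *Cxcr5* shares 110 of its 3332 exonic bases with *Bcl9l* on the opposite strand, and *Ccr9* shares 1932 of 10260 with a non-coding model on the opposite strand. Whether strand entered the counting is not given, so reads in these stretches cannot be assigned with certainty. For *Cxcr5*, 8.09% of the 50-base stretches in the last 300 bases of its transcripts also occur in *Bcl9l* transcripts.

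Promoter windows are shown for *Ccr6*, the receptor with most reads, and for *Ccr4* and *Ccr9*, which passed the 2-fold threshold, because the study followed RelA (an NF-κB subunit) and STAT3 in these cells. RefSeq (GRCm38.p6) gave windows from 250 bases before to 50 bases after a gene start for 8 of the 9 genes, all but *Cxcr5*. For *Ccr4* and *Ccr9* this start lies inside the GENCODE gene model given above, and the model's own start was not examined. The sequences are written 5′ to 3′ on the gene's strand. Capitals mark matches, on either strand, to an NF-κB motif (GGG, any 5 bases, then CC), a STAT motif (TTCNNNGAA) or an AP-1 motif (TGANTCA). The windows are chr17:8235793-8236092 and chr17:8242276-8242575 for the upstream and downstream starts of *Ccr6*, chr9:114496495-114496794 for *Ccr4* and chr9:123766961-123767260 for *Ccr9*.
Ccr6 upstream start: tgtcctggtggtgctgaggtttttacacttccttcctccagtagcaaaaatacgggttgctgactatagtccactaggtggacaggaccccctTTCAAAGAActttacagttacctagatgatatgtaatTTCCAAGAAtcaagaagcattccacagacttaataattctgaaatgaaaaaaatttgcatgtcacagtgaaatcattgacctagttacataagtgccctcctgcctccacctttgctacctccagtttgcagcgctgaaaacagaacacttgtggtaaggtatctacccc
Ccr6 downstream start: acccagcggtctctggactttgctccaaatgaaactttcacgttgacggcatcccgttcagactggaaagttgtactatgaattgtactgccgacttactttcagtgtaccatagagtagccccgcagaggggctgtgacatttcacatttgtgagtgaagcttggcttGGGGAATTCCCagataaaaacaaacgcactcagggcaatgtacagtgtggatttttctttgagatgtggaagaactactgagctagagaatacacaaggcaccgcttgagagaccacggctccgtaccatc
Ccr4: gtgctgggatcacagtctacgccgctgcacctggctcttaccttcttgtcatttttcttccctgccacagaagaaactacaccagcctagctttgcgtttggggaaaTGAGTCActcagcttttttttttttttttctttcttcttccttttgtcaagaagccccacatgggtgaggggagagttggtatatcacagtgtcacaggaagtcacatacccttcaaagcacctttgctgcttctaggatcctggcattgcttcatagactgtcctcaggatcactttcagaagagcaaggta
Ccr9: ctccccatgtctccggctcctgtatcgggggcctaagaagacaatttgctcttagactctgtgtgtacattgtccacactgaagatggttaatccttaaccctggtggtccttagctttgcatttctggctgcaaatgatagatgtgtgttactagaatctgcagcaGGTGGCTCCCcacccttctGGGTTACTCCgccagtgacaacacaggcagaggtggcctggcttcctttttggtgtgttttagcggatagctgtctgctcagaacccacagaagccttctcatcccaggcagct

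The upstream *Ccr6* window held 2 STAT matches. The downstream window held 1 short stretch, GGGGAATTCCC, in which 3 NF-κB matches overlapped. Of these, 2 are the same bases read on each strand. The *Ccr4* window held 1 AP-1 match and no match to the other motifs. The *Ccr9* window held 2 NF-κB matches. Such letters are common for NF-κB, present in 50.8% of 32851 promoter windows, and less so for STAT (8.30%) and AP-1 (7.81%). Of the remaining windows, *Ccr8* held 2 overlapping NF-κB matches and *Cxcr3* held 1, whereas those of *Ccr2*, *Cxcr4* and *Cxcr6* held no match. A match is a description of the letters and not a binding site.

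The 9 receptors together had 1995 reads in Control and 1046 reads in RV-Cre. Scaled by TMM (a factor for each library that brings most genes to a similar level), the summed ratio was 0.592, with an exact Clopper-Pearson 95% interval of 0.548 to 0.638. This interval, like all intervals given for ratios here, rests on the split of the reads between both libraries and covers counting error only. A gene was called higher or lower when its log2(normalized count + 1) was at least 4 in at least 1 library and differed by at least 1 between them, that is, 2-fold. All 9 receptors passed the minimum, 2 were called lower (*Ccr4* and *Cxcr5*) and 1 was called higher (*Ccr9*). Of the 12112 genes past the minimum, 12.3% were called lower and 14.2% higher, a share that comes to about 1 of 9 genes in either direction. Scaling to *Gapdh* in place of TMM changed the split over all genes from 1720 higher and 1491 lower to 2960 higher and 780 lower. The log2 ratio was below 0 for 8 of the 9 receptors, with a median of -0.77 against -0.01 over all genes. With scaling to *Gapdh*, which raised the median log2 ratio of all genes by 0.44, 2 of the 8 (*Ccr2* and *Cxcr6*) were above 0. The 95% interval lay wholly below a ratio of 1 for 6 receptors and wholly above it for 1, where 38.1% and 36.7% of all genes past the minimum did so.

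**Figure D1:**
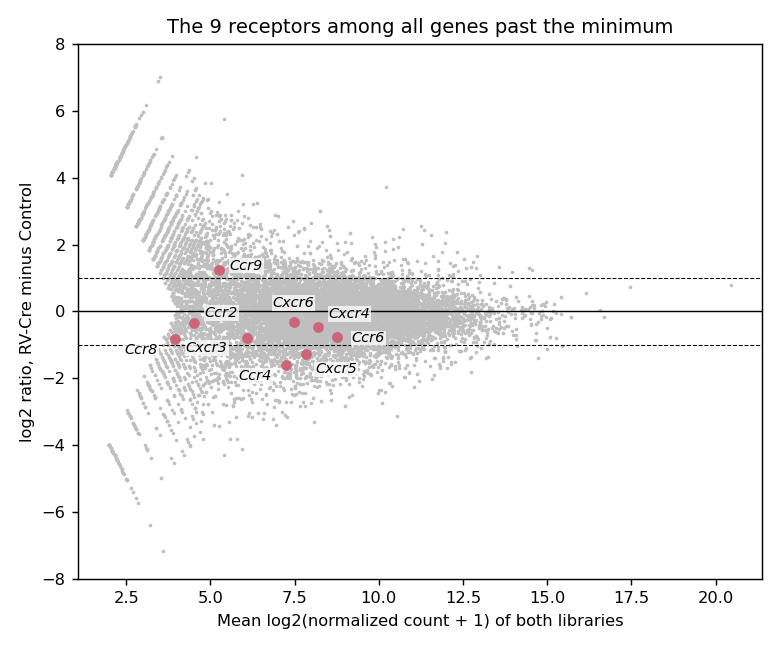
Difference (RV-Cre minus Control, log2) against mean level (log2 of the normalized count + 1) for each of the 12112 genes past the minimum (grey) and the 9 receptors (red, named), with dashed lines at 2-fold. *Ccr4* and *Cxcr5* lie below the lower line, *Ccr9* above the upper line, and the other 6 between 0 and the lower line.

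*Ccr4*, which binds CCL17 and CCL22, had 279 reads in Control and 80 in RV-Cre, or 20.2 and 6.50 CPM (counts per 1000000 counted reads). Its normalized ratio of 0.324 (95% interval 0.249 to 0.416) was the lowest of the 9, with a log2 ratio of -1.62. Of all genes past the minimum, 5.30% had a lower log2 ratio than *Ccr4*. Among the 1546 genes with a mean log2 count within 0.5 of that of *Ccr4*, 14.4% were called lower. Its ligand genes had 22 and 22 reads for *Ccl17* and 137 and 337 reads for *Ccl22*, which was called higher with a log2 ratio of 1.47.

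*Cxcr5*, the receptor for CXCL13 that leads T cells into B cell follicles, had 375 and 138 reads, or 27.2 and 11.2 CPM. The ratio was 0.415 (95% interval 0.339 to 0.506) and the log2 ratio -1.26. The upper end of the interval lay just above 0.5, so counting error alone reaches the 2-fold threshold. Of the 1804 genes at a like mean level, 12.0% were called lower. With scaling to *Gapdh* the log2 ratio was -0.85 and *Cxcr5* was not called. No read fell on *Cxcl13* in either library, which allows up to 3 reads in each. *Bcl6*, which encodes the defining transcription factor of follicular helper T cells, had 196 and 207 reads and a ratio of 1.19, with 1 inside the interval (0.976 to 1.46). *Cxcr5* is also a receptor of B cells. The reads on 8 B cell marker genes, of which *Pax5* was at 0 in both libraries, summed to 69 in Control and 133 in RV-Cre. Of the 5 B cell markers past the minimum, 3 were called higher and 0 lower, against 14.2% and 12.3% of all genes. The part of such cells in the value of *Cxcr5* was not tested.

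*Ccr9*, the receptor for the intestinal and thymic chemokine CCL25, was the only one of the 9 with more normalized reads in RV-Cre. It had 25 reads in Control and 54 in RV-Cre, or 1.81 and 4.39 CPM, a ratio of 2.44 with a 95% interval from 1.49 to 4.09 and a log2 ratio of 1.25. The interval includes ratios below 2, so the position of *Ccr9* past the threshold is not settled at this depth. Calls of this kind were frequent at this level of expression. Of the 950 genes with a mean log2 count within 0.5 of that of *Ccr9*, 25.5% were called higher, against 14.2% of all genes. *Ccl25* itself had 62 and 40 reads and a log2 ratio of -0.45.

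*Ccr6* carried the most reads of the 9 in both libraries, 601 in Control and 313 in RV-Cre, or 43.6 and 25.4 CPM. The ratio was 0.588 (95% interval 0.511 to 0.675) and the log2 ratio -0.77, larger than counting error and short of the 2-fold threshold. Its chemokine ligand gene *Ccl20*, which Th17 cells also make, had 88 and 4 reads, a ratio of 0.0513 with an interval of 0.0137 to 0.136. The intervals of *Ccr6* and *Ccl20* did not overlap, which also held for 64.2% of all pairs of genes past the minimum.

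*Cxcr3*, the receptor for CXCL9 and CXCL10 on Th1 cells, had 94 and 48 reads, or 6.81 and 3.90 CPM. Its ratio of 0.576 (95% interval 0.398 to 0.824) matched that of *Ccr6* within counting error. *Tbx21*, which encodes the Th1 factor T-bet, had 1569 and 399 reads and a ratio of 0.287 (0.256 to 0.321). The ligand genes were unlike each other, with 106 and 19 reads for *Cxcl10* (log2 ratio -2.25) and 53 and 93 reads for *Cxcl9* (log2 ratio 0.97).

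*Cxcr4*, the receptor for CXCL12 that many lymphocytes carry from the naïve state on, had 363 and 234 reads, or 26.3 and 19.0 CPM. The ratio was 0.727 (95% interval 0.615 to 0.860). *Cxcr6*, the receptor for CXCL16 on tissue-resident and effector T cells, had 211 and 151 reads, or 15.3 and 12.3 CPM, and a ratio of 0.808, with an interval from 0.651 to just under 1. With a 99% interval the ratio of *Cxcr6* was no longer distinguishable from 1. *Fyco1*, the gene around *Cxcr6*, had 140 and 246 reads, so its reads moved in the other direction, and *Cxcl16* was called higher (110 and 281 reads, log2 ratio 1.52).

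*Ccr2* and *Ccr8* stood close to the expression minimum. *Ccr2*, the receptor for CCL2 on monocytes and some effector T cells, had 26 and 18 reads and a ratio of 0.781 (95% interval 0.403 to 1.48). *Ccr8*, the receptor for CCL1, had 21 and 10 reads and a ratio of 0.537 (0.226 to 1.19). At this depth no difference was detectable for either gene. *Ccl1* had 16 and 30 reads, a log2 ratio of 1.03, and was called higher. Its ratio of 2.12 had an interval of 1.12 to 4.16, which includes ratios below 2-fold. The log2 ratio was 0.57 with quantile normalization and 0.74 with a pseudocount of 10, so *Ccl1* was not called there. The reads on 12 myeloid marker genes summed to 415 and 433, ranging from 0 to 217 in Control and from 3 to 110 in RV-Cre. *Adgre1* was at 0 in Control, and of the 9 myeloid markers past the minimum, 4 were called higher and 2 lower. Reads on 8 markers of CD8 T cells and NK cells summed to 1009 and 1523, ranging from 0 to 492 and from 0 to 615. *Ncr1* was at 0 in Control and *Klrb1c* at 0 in RV-Cre. Of these 8 markers, 5 passed the minimum. *Cd8a* (322 and 580 reads, log2 ratio 1.02) and *Cd8b1* (122 and 274, 1.33) were called higher, and *Klrk1* (41 and 9, -1.91) lower. Of all genes past the minimum, 14.2% were called higher and 12.3% lower. The part of such cells in the receptor values was not tested.

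**Figure D2:**
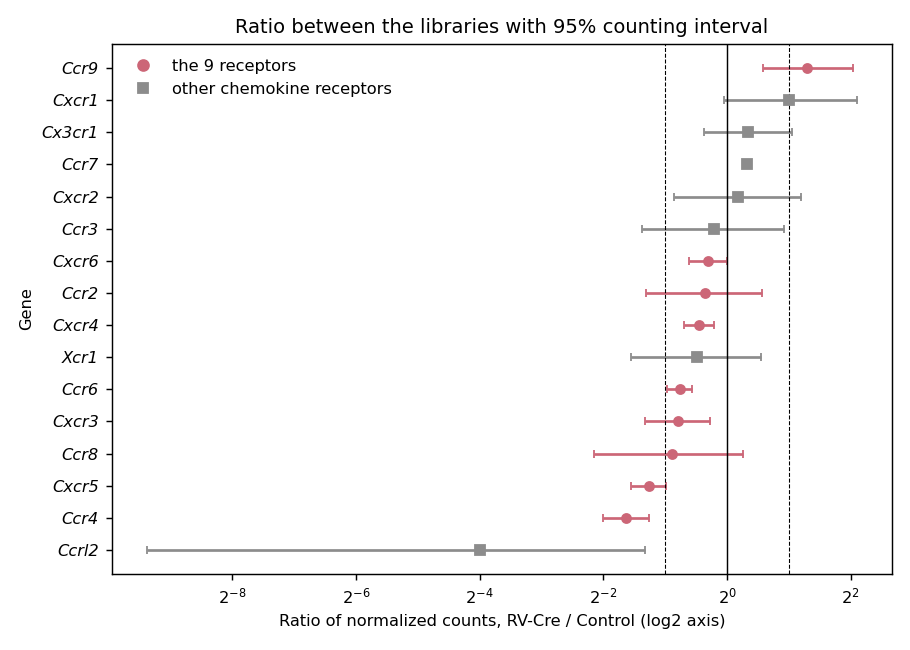
Ratio of normalized counts, RV-Cre over Control, on a log2 axis for the 9 receptors (red circles) and 7 other chemokine receptors past the minimum (grey squares), with bars for the 95% counting interval and dashed lines at 2-fold. The bars of *Ccr2* and *Ccr8* cross a ratio of 1, while those of *Ccr4*, *Cxcr5*, *Ccr6*, *Cxcr3* and *Cxcr4* lie below it and that of *Cxcr6* ends just under it.

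Within each library the receptors were spread over a wide range of levels. In Control the order by CPM was *Ccr6*, *Cxcr5*, *Cxcr4*, *Ccr4*, *Cxcr6*, *Cxcr3*, *Ccr2*, *Ccr9* and *Ccr8*. Counting intervals of the levels overlapped for the neighbours *Cxcr5* and *Cxcr4* and among *Ccr2*, *Ccr9* and *Ccr8*, and did not overlap for the other neighbours. In RV-Cre the order was *Ccr6*, *Cxcr4*, *Cxcr6*, *Cxcr5*, *Ccr4*, *Ccr9*, *Cxcr3*, *Ccr2* and *Ccr8*, with overlapping intervals between *Cxcr6* and *Cxcr5*, among *Ccr4*, *Ccr9* and *Cxcr3*, and between *Ccr2* and *Ccr8*. Levels per kilobase of the longest coding transcript, which matter if reads came from along the whole transcript, placed *Ccr6* first and *Cxcr4* next in both libraries. On that scale *Ccr6* had 24.8 and *Cxcr4* 14.6 CPM per kilobase in Control, and 14.5 and 10.5 in RV-Cre. *Cxcr5* had 9.55 CPM per kilobase in Control and 3.94 in RV-Cre, and *Ccr2* was the lowest of the 9 on that scale, with 0.329 and 0.255.

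**Figure D3:**
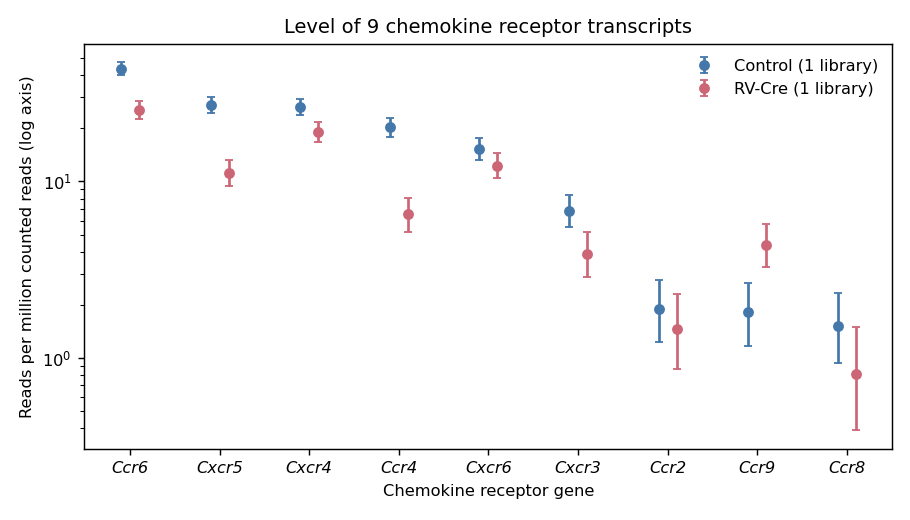
CPM (log axis, not divided by transcript length) of each receptor in the Control library (blue) and the RV-Cre library (red), with bars for the exact Poisson 95% interval. *Ccr6* is highest in both libraries, the largest gaps are those of *Ccr4* and *Cxcr5*, and *Ccr9* alone is higher in RV-Cre.

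The make-up of the receptor reads does not depend on how the libraries were scaled to each other. *Ccr6* held 30.1% of the 1995 reads in Control (exact Clopper-Pearson 95% interval 28.1 to 32.2) and 29.9% of the 1046 reads in RV-Cre (27.2 to 32.8). *Ccr4* held 14.0% (12.5 to 15.6) and 7.65% (6.11 to 9.43), and *Cxcr5* 18.8% (17.1 to 20.6) and 13.2% (11.2 to 15.4). Both intervals lay apart. The share of *Ccr9* went the other way, from 1.25% (0.813 to 1.84) to 5.16% (3.90 to 6.68).

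*Cxcr6* held 10.6% (9.26 to 12.0) of the receptor reads in Control and 14.4% (12.4 to 16.7) in RV-Cre, a larger share on fewer reads. *Cxcr4* held 18.2% (16.5 to 20.0) and 22.4% (19.9 to 25.0), with intervals that just overlapped. The shares of *Cxcr3*, *Ccr2* and *Ccr8* overlapped between the libraries. Of the 36 pairs of receptors, 14 had ratio intervals that did not overlap, 8 of them pairs with *Ccr9*, and the other 6 set *Ccr4* or *Cxcr5* apart from another receptor. Over all pairs of genes past the minimum, 64.2% had intervals that did not overlap.

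**Figure D4:**
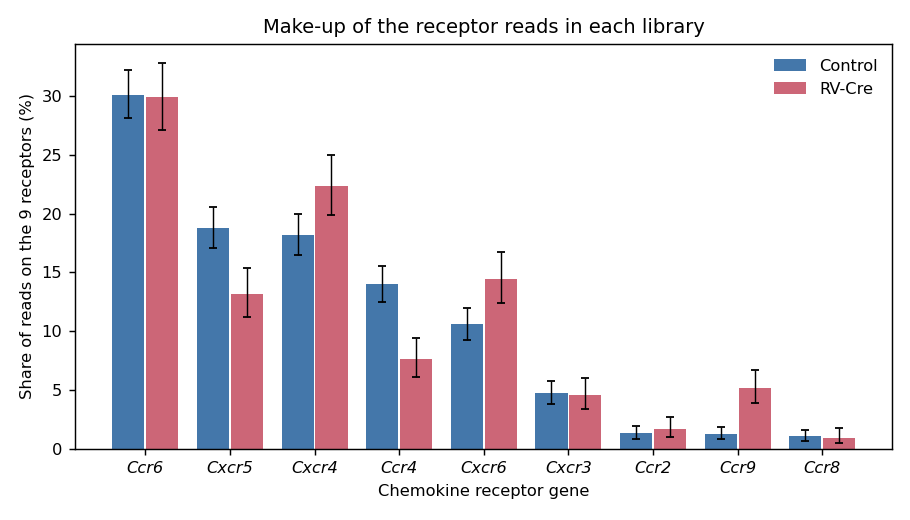
Share of the reads on the 9 receptors (%) that each gene held in Control (blue, 1995 reads) and RV-Cre (red, 1046 reads), with exact 95% intervals. *Ccr6* holds about the same share in both, *Ccr4* and *Cxcr5* smaller and *Cxcr6* and *Ccr9* larger shares in RV-Cre.

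Set against the whole family of 24 chemokine receptor genes, the 9 held 26.6% (25.6 to 27.6) of 7494 receptor reads in Control and 14.9% (14.1 to 15.8) of 7014 in RV-Cre. Most of the remaining reads were on *Ccr7*, the lymph node homing receptor of naïve and central memory T cells, with 5259 and 5832 reads and a ratio of 1.25 (95% interval 1.21 to 1.30). For each 100 *Ccr7* reads there were 37.9 reads on the 9 receptors in Control and 17.9 in RV-Cre. Leaving out *Ccr4* and *Cxcr5*, the other 7 receptors had 25.5 and 14.2 reads for each 100 *Ccr7* reads.

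Of the 15 other chemokine receptor genes, 8 passed the minimum, 2 were called lower and 0 higher, with a median log2 ratio of -0.02. For this and the gene lists below, the shares over all genes past the minimum were 12.3% lower and 14.2% higher. *Ccrl2*, called lower, had 18 and 1 reads, a ratio of 0.0627 with an interval of 0.00150 to 0.397. *Cxcr1*, *Cxcr2*, *Cx3cr1*, *Ccr3* and *Xcr1* had between 13 and 38 reads in each library, and their intervals included 1.

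In the cluster of receptor genes on chromosome 9 that holds *Ccr9*, *Cxcr6* and *Ccr2*, the log2 ratios did not all have the same sign. Over this stretch the log2 ratios were 1.25 for *Ccr9*, -0.31 for *Cxcr6*, -0.45 for *Xcr1*, -0.20 for *Ccr3* and -0.34 for *Ccr2*. The 95% interval of *Ccr9*, which rests on 25 and 54 reads, lay above those of *Cxcr6* and *Ccr2*. Intervals lay apart in this way for 64.2% of all pairs of genes past the minimum. Of the 50-base stretches of *Ccr9* transcripts, 20.1% also occur in transcripts of other genes, as do 1.91% of those of *Ccr2*, but none of those in the last 300 bases of either gene's transcripts. *Ccr1* had 1 and 9 reads and *Ccr1l1* none.

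**Figure D5:**
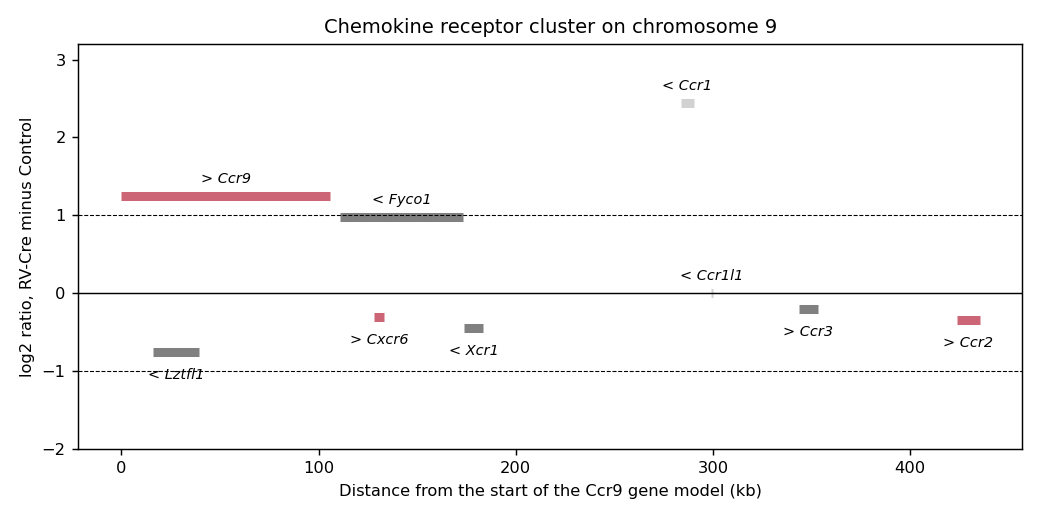
Position of receptor genes and of *Lztfl1* and *Fyco1* along the chromosome 9 cluster (kb from the start of the *Ccr9* gene model) against the log2 ratio, RV-Cre minus Control. Red bars are genes of the 9, grey bars other genes, pale bars genes below the minimum, the signs > and < beside a name mark the plus and minus strand, and dashed lines mark 2-fold. *Ccr9* lies above the upper line, and *Cxcr6*, *Xcr1*, *Ccr3* and *Ccr2* lie between 0 and the lower line.

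Some ligands of the 9 receptors were also transcribed in these cultures, while *Cxcl12*, *Cxcl13*, *Ccl8* and *Ccl12* had no read in either library. Of 15 ligand genes, 8 passed the minimum, with 3 called higher (*Ccl22*, *Cxcl16* and *Ccl1*), 2 called lower (*Ccl20* and *Cxcl10*) and a median log2 ratio of 0.57. Of the other chemokine genes, 9 of 17 passed the minimum, 3 were called lower and 2 higher. *Xcl1* had 1441 and 320 reads (log2 ratio -1.99) and *Ccl4* 1666 and 669 (-1.14). *Cxcl3* had 23 and 5 reads, *Cxcl2* 18 and 48, and *Ccl9* 16 and 30. *Ccl9*, with the same reads as *Ccl1*, was likewise not called with quantile normalization (log2 ratio 0.57).

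Genes that carry the signal of these receptors had log2 ratios on both sides of 0. Of 26 genes for G proteins and their effectors, 25 passed the minimum, 4 were called higher and 3 lower, and the median log2 ratio was 0.07. Over all genes past the minimum, 14.2% were called higher and 12.3% lower, so these counts are not particular to this list. *Gnai2*, the main Gi subunit of lymphocytes, had 8688 and 11088 reads (ratio 1.44), and *Rac2* 4158 and 6448 (ratio 1.75). *Dock2*, the Rac activator that lymphocytes need for chemotaxis, had 1166 and 2857 reads and a log2 ratio of 1.47, while its partner *Elmo1* had 750 and 290 reads and a log2 ratio of -1.19. *Rasgrp2*, which activates Rap1, had 128 and 379 reads (1.73), *Rassf5*, an effector of Rap1, 2112 and 3996 (1.09), and *Plcb2* 70 and 160 (1.35). *Rap1b* had 6628 and 2911 reads (-1.01) and *Gng2* 780 and 296 (-1.22).

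Genes of receptor desensitization and receptor turnover or export included 4 called lower and 1 higher among 16 past the minimum, with a median log2 ratio of -0.04. *Rgs1* and *Rgs16*, which shorten Gi signalling, had 3659 and 831 reads (log2 ratio -1.96) and 1297 and 313 reads (-1.87). The receptor kinase gene *Grk5* had 21 and 7 reads (-1.30), and *Adrbk2*, the kinase GRK3, 13 and 51 (2.06). *Cnih4*, whose protein acts in receptor export, had 2671 and 993 reads (-1.25). The kinase genes with most reads, *Grk6* and *Adrbk1*, had ratios of 1.85 (1.75 to 1.95) and 1.85 (1.75 to 1.97).

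Of 13 genes for receptors of other classes and adhesion molecules that direct T cell traffic, 10 passed the minimum, 4 were called higher and 0 lower, and the median log2 ratio was 0.51. *S1pr1*, needed for exit from lymph nodes, had 502 and 1792 reads (log2 ratio 2.01), *S1pr4* 305 and 928 (1.78) and *Gpr183* 244 and 511 (1.24). *Selplg*, the ligand of P-selectin, had 2082 and 3141 reads and a ratio of 1.70.

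Of 16 lineage transcription factors, 3 were called higher and 3 lower, with a median log2 ratio of -0.07. Beside *Tbx21*, *Maf* was lower (6445 and 2509 reads, log2 ratio -1.19). *Gata3*, the Th2 factor, was higher with 114 and 814 reads and a log2 ratio of 3.00, as were *Klf2* with 1175 and 5668 (2.44) and *Satb1* with 11088 and 22319 (1.18). *Stat3*, which carries the IL-6 signal of Th17 differentiation, had 8830 and 8782 reads and a log2 ratio of 0.17. *Foxp3*, the regulatory T cell factor, had 830 and 650 reads and a ratio of 0.884 (0.796 to 0.980). With scaling to *Gapdh* the log2 ratio of *Foxp3* was 0.24, so its direction depends on the scaling.

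Genes with nearly the same pair of levels were numerous for most of the 9. Distance was measured in the plane of the log2 values of both libraries, over 2 values a gene. Within a distance of 0.25 lay 164 genes for *Cxcr4*, 160 for *Cxcr6* and 109 for *Ccr6*, but 29 for *Ccr4* and 50 for *Cxcr5*. *Ccr8* had 36 such genes, *Ccr9* 41, *Ccr2* 53 and *Cxcr3* 59. The nearest genes were *Txnip* and *B3galnt2* for *Ccr6*, *Ippk* and *Kifc3* for *Ccr4*, and *Igf2bp1* and *Ly6d* for *Ccr9*. They were *Lamtor3* and *Hist1h2ah* for *Cxcr5*, *Kcnq5* and *Cep131* for *Cxcr3*, *Ift52* and *Ggta1* for *Cxcr4*, *Tmem219* and *Ankrd13b* for *Cxcr6*, *Fam228b* and *AI854703* for *Ccr2*, and *B330016D10Rik* and *Glt28d2* for *Ccr8*. With 1 library in each group, such likeness describes these 2 libraries.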

How the data were processed

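Counts from 1 Control and 1 RV-Cre library, each from 500 ng of total RNA with a Quant-Seq kit, were analysed. The authors deposited raw read counts per gene symbol, without normalization. The submitters' processing notes name bcl2fastq 2.20.0.422, Bowtie2, bedtools and the build mm10. Read filters and strand use in counting are not given in the sources used here. Of the 23282 rows, 79 share a symbol with another row and were left out of gene lists.

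TMM scaling (edgeR 4.0.16 in R 4.3.3) gave a size factor of 1.06 for Control and 0.941 for RV-Cre. Log2 ratios are differences of log2(normalized count + 1), and the minimum was 15 normalized reads in at least 1 library. No test across genes was run with 1 library in each group. Intervals of ratios and shares are exact Clopper-Pearson and those of CPM exact Poisson 95% intervals (scipy 1.17.1). Reads carry no molecular identifiers, so intervals cover counting error only. The procedure was tested on simulated data with counting error only. Variation between cultures was not simulated, and the changed genes lay above both the minimum and the 2-fold threshold. Motifs and 50-base stretches were searched in RefSeq promoter windows and GENCODE M21 transcripts with Python 3.11.15.

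Some genes of the lists enter the counts and are not reported here by name. The receptors, gene lists and motifs were chosen with earlier results of these data known. Named genes are the 9 receptors, *Ptk2*, the called genes and the 2 genes with most reads of each list, and the 2 genes nearest to each receptor. *Ccl17*, *Ccl25*, *Cxcl9*, *Bcl6* and *Foxp3*, the receptors within 2-fold, and genes overlapping or next to a receptor were named after their values were seen. Alternatives were other minimums, fold thresholds, pseudocounts and scalings (DESeq2 1.42.0 size factors and limma 3.58.1 quantile normalization among them).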

Additional observations from a re-analysis of the deposited data

How the results depend on the processing

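No paired analysis was possible because each group had 1 library. The main counts were 1 receptor of the 9 higher and 2 lower, 0 other chemokine receptors higher and 2 lower, and 1720 genes in all higher and 1491 lower. With no minimum, 2 other receptors and 3265 genes were higher and 2441 genes lower. Raising the minimum to a log2 count of 6 left 0 of the 9 receptors higher and 1 other receptor lower, since *Ccr9* and *Ccrl2* were no longer counted. Over all genes it left 734 higher and 1067 lower, so that lower genes were then the more numerous. With a fold threshold of 1.5, 5 of the 9 receptors were lower, 1 other receptor was higher, and 2847 genes were higher and 2777 lower. With a threshold of 3, 0 of the 9 receptors were higher and 1 lower, with 1008 genes higher and 669 lower. Library totals without *Rn45s* gave 1 other receptor higher. With quantile normalization 3 of the 9 receptors were lower, with *Ccr8* added at a log2 ratio of -1.34. Scaling to *Gapdh* gave 1 of the 9 receptors lower, 1 other receptor higher and 1 lower, and 2960 genes higher and 780 lower. It moved the median log2 ratio of all genes by 0.44, and other scalings by less than 0.1. Over the scalings and pseudocounts run, log2 ratios ranged from -1.63 to -1.20 for *Ccr4*, from -1.28 to -0.85 for *Cxcr5*, from 1.01 to 1.66 for *Ccr9* and from -0.78 to -0.35 for *Ccr6*. Of 63 such values of the 9 receptors, 58 stayed inside the counting interval and 5, all with *Gapdh* scaling, did not. Of 868 values of the other listed genes, 714 stayed inside and 154 did not. No called gene changed direction, but several calls were lost. With scaling to *Gapdh*, *Ccl4*, *Maf*, *Gng2*, *Elmo1*, *Rap1b*, *Grk5*, *Cnih4* and the myeloid marker *Lyz2* were no longer called lower. Among them are all lower genes of the list of G proteins and their effectors. *Rap1b* also lost its call with library totals without *Rn45s* and with quantile normalization. With a 99% interval, 6 receptors in place of 7 excluded a ratio of 1. The depth limits *Ccr2*, *Ccr8* and *Ccr9*, which had at most 54 reads in a library.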
